A study of Homo sapiens with 4 samples.

Results

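The regions described here are the coding promoter peaks of SMAR1 that were found in both HCT116 p53+/+ and HCT116 p53-/- cells. SMAR1, the product of the gene BANP, is a nuclear matrix protein that binds DNA. HCT116 is a human colorectal carcinoma line, and the comparison of these lines, 1 with p53 and 1 without it, addresses how SMAR1 and p53 act together in gene regulation. Both lines were untreated, and chromatin was precipitated with an antibody against SMAR1/BANP or with normal rabbit IgG. There was 1 anti-SMAR1 library per line, and the peaks called on it are the data used here. The IgG libraries were not analysed here. Whether the p53-/- line is a single clone is not given in the sources used here.

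The peaks were selected on their position alone. A peak on chromosomes 1 to 22 or X was kept if it overlapped a peak of the other line by at least 1 bp and if its centre lay within 1 kb of the nearest transcription start site (TSS), that TSS belonging to a protein-coding gene. This left 336 of 5471 peaks in HCT116 p53+/+ and 296 of 8127 peaks in HCT116 p53-/-. In all, the deposited lists held 5709 and 8217 peaks, respectively. Overlap with the other list was met by 1141 peaks (20.9%) in HCT116 p53+/+ and by 1092 peaks (13.4%) in HCT116 p53-/-. The promoter criterion was met by 566 peaks (10.3%) and 963 peaks (11.8%), respectively. The coding promoter peaks found in 1 line only numbered 230 and 667, respectively. They are used below as the nearest comparison, together with the shared peaks elsewhere (805 and 796) and all coding promoters.

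Joined across the lists, the shared coding promoter peaks formed 302 loci, of which 288 held a selected peak from both lists, 10 from HCT116 p53+/+ alone and 4 from HCT116 p53-/- alone. At these last loci, the overlapping peak of the other line did not meet the promoter criterion. At 37 loci, several HCT116 p53+/+ peaks met the same locus, against 4 loci with several HCT116 p53-/- peaks, which goes with the larger number of selected peaks in HCT116 p53+/+. The loci lay on each of the chromosomes examined, from 35 on chromosome 1 to 2 on chromosome 18. Of 20090 protein-coding genes, 318 (1.58%) were the nearest gene of such a peak in at least 1 list and 275 in both.

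A promoter is the stretch around a TSS where transcription factors and RNA polymerase assemble. Many human promoters, above all those of genes used in every cell, lie in CpG islands, where the dinucleotide CpG has been kept and is mostly free of methylation. A palindrome known as the CGCG element occurs in a set of these promoters, and the protein encoded by BANP is known to bind it when it is unmethylated. The study itself named a dinucleotide T(C/G) repeat as a sequence enriched in SMAR1 peaks. It also reported that purified SMAR1 protein bound such repeats in calorimetry and gel-shift assays. Neither sequence was used to choose the peaks, and both were searched in them.

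The exact CGCG element, TCTCGCGAGA, was present in many of the highest shared promoters by score, and copies at 7 of these loci are printed because they are the sequence most characteristic of the strongest loci that hold it. Each is given on the plus strand of GRCh37 (hg19) with 10 bases on either side, and the capitals mark the element.
RBM39, chr20:34330219-34330248: cagcacgggcTCTCGCGAGAagctgcccca
RBM39, chr20:34330388-34330417: agcacccaaaTCTCGCGAGAcagagcgggt
COX11, chr17:53046065-53046094: gcgtgctccgTCTCGCGAGAtctgggttga
MAPK14, chr6:35995416-35995445: attgttctctTCTCGCGAGAactgctcctc
MAPK14, chr6:35995521-35995550: cgggagctgtTCTCGCGAGAgtactgcggg
RNF167, chr17:4843502-4843531: tgtttgaaggTCTCGCGAGAtcgagtgagt
RNF167, chr17:4843602-4843631: tggtgagcacTCTCGCGAGAtttgaaggag
UBE2D3, chr4:103749110-103749139: aggagacgacTCTCGCGAGAacttcgtggc
UBE2D3, chr4:103749218-103749247: atgcataagtTCTCGCGAGAcgcagtaagg
CAND1, chr12:67662918-67662947: cgctttagagTCTCGCGAGAacagcccctt
RPS19, chr19:42364266-42364295: ctttcggaacTCTCGCGAGAccctacgccc

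The other kind of sequence, the T(C/G) repeat, is shown for PAXBP1, which encodes a PAX-binding protein, as an example of a long run. PAXBP1 is not typical of the loci with a run, since its peaks also held the exact element. Its HCT116 p53-/- peak had its nearest TSS in C21orf62-AS1, a lncRNA gene, so only its HCT116 p53+/+ peak met the promoter criterion. The run was 88 bp long and made of TC steps. It is printed on the strand that reads T(C/G), with 5 bases on either side, and the capitals mark the run.
PAXBP1, chr21:34144166-34144263, minus strand: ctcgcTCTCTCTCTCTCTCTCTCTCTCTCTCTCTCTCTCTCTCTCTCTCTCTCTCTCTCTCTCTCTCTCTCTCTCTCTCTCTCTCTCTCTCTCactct

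Shared coding promoter peaks stood high in the score order of their lists. The score is the value MACS writes, which is -10 times the log10 of the peak's p-value. It is not scaled for depth, and a score is therefore read as a rank within its own list. The lists hold no reads, so depth could not be computed from them, and the HCT116 p53-/- library was the more deeply sequenced one according to the study. The HCT116 p53+/+ peaks scored from 50.18 to 1616, with a median of 92.4 at the 80.3 percentile of the list, and 139 of them (41.4%) were in the highest-scoring 10% of the list. In HCT116 p53-/- they scored from 50.2 to 3160.36, with a median of 525 at the 97.6 percentile, and 239 (80.7%) were in the highest-scoring 10%. For comparison, the highest-scoring 10% held 3.04% of the HCT116 p53+/+ coding promoter peaks found in that line only and 21.4% of those found only in HCT116 p53-/-. The overlap that chose the shared peaks was taken from the same libraries as the scores, so these values are a description.

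The peaks were longer than others and lay close to the TSS. The median length was 166 bp in HCT116 p53+/+ and 453 bp in HCT116 p53-/-. The HCT116 p53-/- peak was the longer one at 283 of the 302 loci (93.7%). Their centres had a median position of -29.5 bp and -30.75 bp from the TSS, where negative values are upstream. Although the limit was 1 kb, 226 of the HCT116 p53+/+ peaks (67.3%) and 202 of the HCT116 p53-/- peaks (68.2%) had their centre within 100 bp. The centre was upstream of the TSS in 238 (70.8%) and 222 (75%), and the peak itself covered the TSS in 219 (65.2%) and 235 (79.4%). The peaks nearest the limit differed from this majority. Just inside it were WASHC1 (centre at -934.5 bp, score 54.99 in HCT116 p53+/+) and COL6A1 (-952.5 bp, 206.73). Just outside were EPS8 (1011.5 bp, 68.29), KCNMB2 (-1034 bp, 56.25) and NECTIN2 (-1042 bp, 54.99). In HCT116 p53-/-, the same genes stood on the same sides of the limit, with scores from 51.58 to 208.53 inside it and from 60.51 to 95.46 outside it. All of them except EPS8 held a T(C/G) run of at least 12 bp.

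In base composition the shared peaks were CpG-rich. The ratio of observed to expected CpG in the 301-bp window around the centre had a median of 0.884 in HCT116 p53+/+ and 0.881 in HCT116 p53-/-, against 0.733 in the windows of all 20098 coding promoters. Coding promoter peaks found in 1 line only had medians of 0.337 and 0.727, respectively, and shared peaks elsewhere of 0.151 and 0.149. The GC content did not set the shared peaks apart from other promoters in the same way, with medians of 61.3% and 60.6% against 62.8% for all coding promoters. The central 30 bases occurred once in the genome in 313 peaks (93.2%) and 271 peaks (91.6%), compared with 61.7% and 73.9% of the coding promoter peaks found in 1 line only. At the other shared peaks the figures were 44.1% and 47.2%.

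The CGCG element was more frequent in the shared coding promoter peaks than in each other group. The exact 10 bases were found in 78 of 336 peaks in HCT116 p53+/+ (23.2%, 95% Wilson interval 19 to 28) and in 79 of 296 peaks in HCT116 p53-/- (26.7%, 22 to 32). Intervals given here cover counting error only. Among coding promoter peaks found in 1 line only, it was in 0 of 230 in HCT116 p53+/+, which allows a share of up to 1.30%, and in 25 of 667 in HCT116 p53-/- (3.75%, 2.55 to 5.47). It was in 11 of 805 (1.37%) and 15 of 796 (1.88%) of the shared peaks elsewhere. Since peaks differ in length, the search was repeated in windows of 301 bp around each centre, where 83 (24.7%, 20.4 to 29.6) and 77 (26.0%, 21.3 to 31.3) of the shared coding promoter peaks held the element. The same window around the TSS of all coding promoters held it in 109 of 20098 cases (0.542%). The intervals of the shared peaks did not overlap that of all coding promoters (0.450 to 0.654) in either line. The share in coding promoter peaks found only in HCT116 p53-/- (3.75%, counted in the peaks) was also above that of all coding promoters. The element was thus not particular to the shared peaks.

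Forms of the element that differ from it at 1 base extended this to most of the shared promoters. With up to 1 mismatch, the element was in 175 peaks (52.1%) in HCT116 p53+/+ and 184 peaks (62.2%) in HCT116 p53-/-. In the fixed window, it was in 198 (58.9%) and 182 (61.5%), against 333 of all coding promoters (1.66%). Of the coding promoter peaks found only in HCT116 p53-/-, 97 (14.5%) held such a form, and of those found only in HCT116 p53+/+, 0 did. The 4 bases CGCG by themselves separated the promoters much less, being in 88.1% and 87.2% of the windows and in 61.6% of all coding promoter windows.

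**Figure D1:**
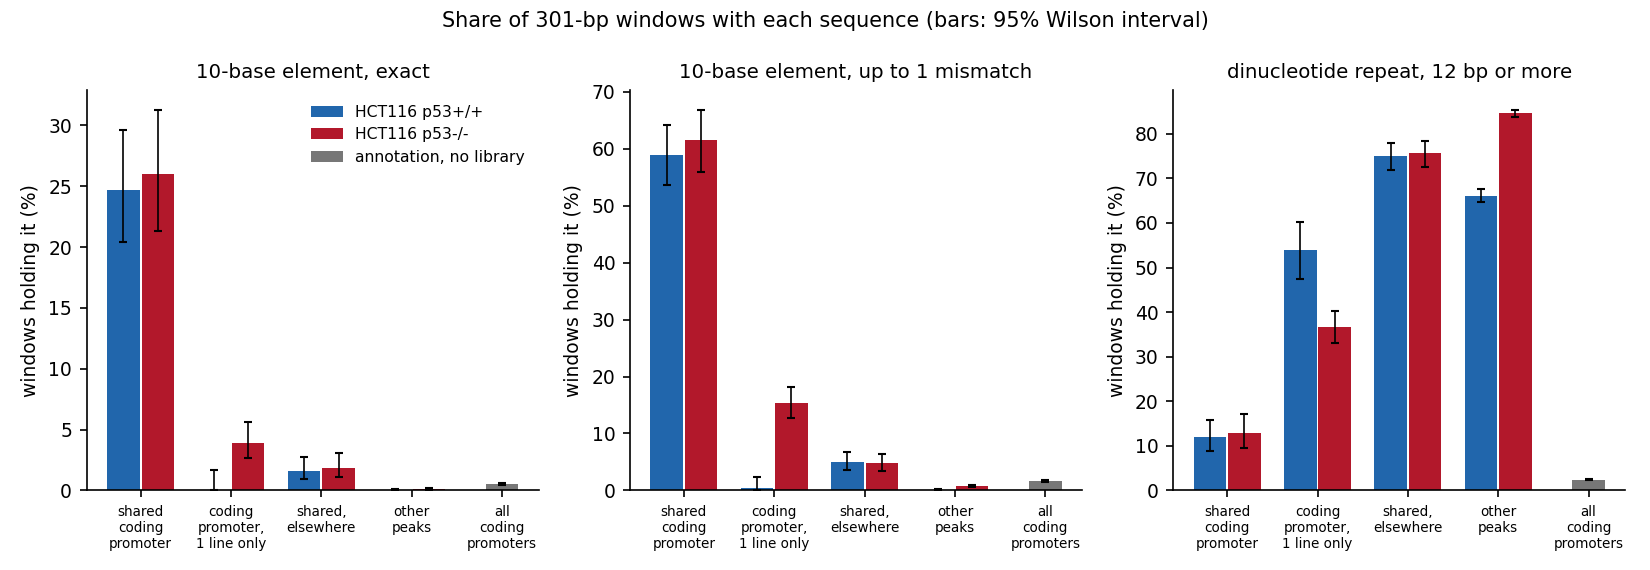
Share of 301-bp windows (y axes, %) that hold the exact CGCG element (left), the element with up to 1 mismatch (middle) or an uninterrupted T(C/G) dinucleotide repeat of at least 12 bp (right), for each group of peaks and for all coding promoters (x axes). Blue bars are HCT116 p53+/+, red bars HCT116 p53-/-, grey bars the annotation, and error bars are 95% Wilson intervals. The exact element reaches 24.7% and 26.0% in the shared coding promoter peaks and 3.90% at most in the other groups, whereas the repeat is at 11.9% and 12.8% there and between 36.6% and 84.6% in the other peak groups.

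A count of words that started from no motif led to the same bases. Of the 8-base words in at least 3% of the shared peaks' windows, counted on both strands and ranked by how much more often they occurred there than in all coding promoter windows, TATCGCGA came first in both lines, in 16.4% of windows in HCT116 p53+/+ and 15.9% in HCT116 p53-/- against 0.343% of all promoters. TCGCGAGA, which is the element without its first bases TC, came second and was in many more windows. It was in 198 of 336 windows (58.9%, 53.6 to 64.1) and 178 of 296 windows (60.1%, 54.5 to 65.5), against 288 of 20098 coding promoters (1.43%). The inner bases TCGCGA alone were in 65.2% and 65.9% of windows, against 3.93% of all promoters. These words were chosen on the shared peaks, so their shares there are a description. In peaks that did not choose them, the share of windows with TCGCGAGA was 10.2% for coding promoter peaks found only in HCT116 p53-/- and 0% (0 of 230, which allows up to 1.30%) for those found only in HCT116 p53+/+.

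The windows without the element or a form with 1 mismatch, 138 in HCT116 p53+/+ and 114 in HCT116 p53-/-, often held a word that shares its inner bases. CATCGCGA was in 16 (11.6%) and 15 (13.2%) of them, against 0.353% of all coding promoters. ATCGCGAG was in 23 (16.7%) and 20 (17.5%), against 0.707%. These words overlap each other by several bases, and 1 site can be counted under both. Among 10-base words of the same windows, CATCGCGAGA was in 10 (7.25%) and 10 (8.77%), against 0.0846% of all coding promoters. ACAGAGAGAG, which reads as T(C/G) steps on the other strand, was in 15 (10.9%) and 13 (11.4%), against 0.199%. The count therefore led to repeat words as well as to words like the element.

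The element sat close to the TSS and near the middle of the peak. The 78 HCT116 p53+/+ peaks with the exact element held 85 copies and the 79 HCT116 p53-/- peaks held 86, with 7 peaks of each line holding 2 copies. Relative to the TSS, the median position of a copy was -41.5 bp in HCT116 p53+/+ (interquartile range -65.5 to -12.5) and -37.5 bp in HCT116 p53-/- (-71.75 to -7.75), and 84.7% and 79.1% of the copies were upstream of it. The median distance of a copy from the centre of its peak was 25.5 bp in HCT116 p53+/+ and 26.25 bp in HCT116 p53-/-, although the HCT116 p53-/- peaks were longer. Within 50 bp of the centre were 65 copies (76.5%) and 60 copies (69.8%), respectively. Because the peaks themselves are centred near the TSS, the positions relative to the TSS and to the peak centre are not independent.

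**Figure D2:**
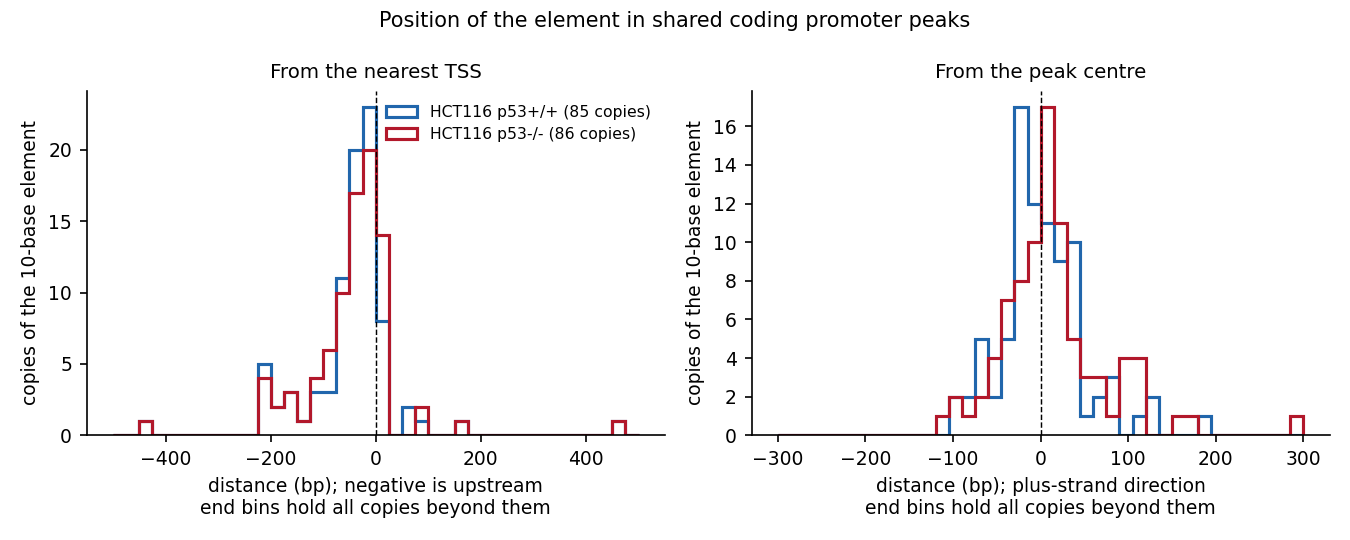
Number of copies of the exact CGCG element (y axes) in the shared coding promoter peaks by distance in bp from the nearest TSS (left, negative is upstream) and from the peak centre (right), in HCT116 p53+/+ (blue, 85 copies) and HCT116 p53-/- (red, 86 copies). The end bins hold all copies beyond them, and most copies lie just upstream of the TSS, with medians of -41.5 and -37.5 bp.

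Searching the genome for the element, instead of searching the peaks, gave the share of its copies that lay in a peak. Chromosomes 1 to 22 and X held 306 exact copies, of which 98 (32.0%) were in a peak of HCT116 p53+/+ and 132 (43.1%) in a peak of HCT116 p53-/-. All 98 copies in HCT116 p53+/+ peaks were also in HCT116 p53-/- peaks, 34 were in HCT116 p53-/- peaks alone and 174 were in neither. Location separated the copies. Of the 130 copies within 1 kb of a coding TSS, 84 were in HCT116 p53+/+ peaks (64.6%, 56.1 to 72.3) and 109 in HCT116 p53-/- peaks (83.8%, 76.6 to 89.2). Of the 146 copies more than 1 kb from any TSS, 3 (2.05%, 0.701 to 5.87) and 4 (2.74%, 1.07 to 6.83) were. The 30 copies at promoters of other gene types lay between these, with 11 (36.7%) and 19 (63.3%).

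The copies also differed in their surroundings. The median ratio of observed to expected CpG around a copy was 0.904 at coding promoters and 0.348 away from any TSS. At coding promoters it was 0.910 around copies in a peak and 0.817 around the 21 copies in no peak. Location and CpG density go together in this set, and their parts cannot be told apart. The shorter word TCGCGAGA, found 2234 times, gave the same order with lower shares. At coding promoters, 302 of 746 copies (40.5%, 37.0 to 44) were in HCT116 p53+/+ peaks and 404 (54.2%, 50.6 to 57.7) in HCT116 p53-/- peaks, against 8 (0.615%) and 11 (0.846%) of 1301 copies away from any TSS.

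**Figure D3:**
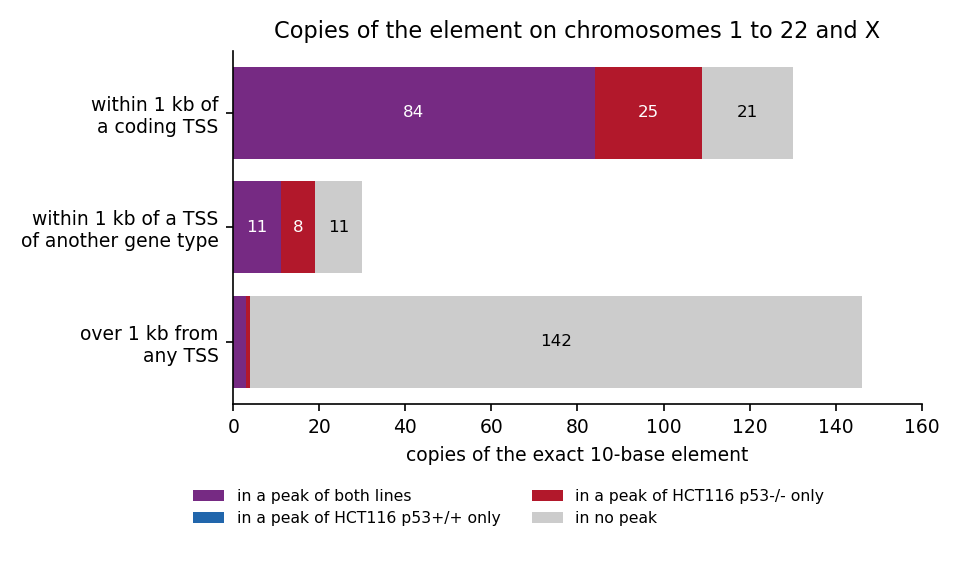
Copies of the exact CGCG element (x axis, number of copies) by location relative to annotated TSSs (y axis), coloured by whether a copy lies in a peak of both lines, of HCT116 p53+/+ only, of HCT116 p53-/- only or in no peak. At coding promoters 84 of 130 copies are in peaks of both lines and 21 in none, whereas 142 of the 146 copies far from any TSS are in none.

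Read from the promoters' side, a coding promoter with the element in its window was far more often under a peak than one without it. Among the 108 coding promoters with 1 copy, 63 (58.3%, 48.9 to 67.2) had an HCT116 p53+/+ peak and 88 (81.5%, 73.1 to 87.7) an HCT116 p53-/- peak. Among the 19989 promoters with 0 copies, these were 219 (1.10%) and 526 (2.63%). All 63 promoters with a copy and an HCT116 p53+/+ peak had peaks of both lines.

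T(C/G) repeats were found in a minority of the shared coding promoter peaks. An uninterrupted run of at least 12 bp on either strand was present in 35 peaks (10.4%, 7.59 to 14.1) in HCT116 p53+/+ and 38 peaks (12.8%, 9.5 to 17.1) in HCT116 p53-/-. The share was 51.3% and 35.1% in the coding promoter peaks of 1 line only, and 73.2% and 74.5% in the shared peaks elsewhere, so these groups differed from the shared promoters by more than counting error. Against all coding promoters the order was the other way. In the fixed window, 11.9% and 12.8% of the shared peaks held a run, against 491 of all coding promoters (2.44%). The central 30 bases were unique in 16 of 33 repeat peaks without an element form in HCT116 p53+/+ (48.5%) and 17 of 35 in HCT116 p53-/- (48.6%), and in 97.4% and 97.5% of the peaks with the exact element. How reads were placed in such repeats was not tested.

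The loci were then sorted by what their peaks held. The exact element was in 83 of the 302 loci (27.5%), a form with 1 mismatch in a further 107 (35.4%), a T(C/G) run but no element form in 36 (11.9%), and none of these in 76 (25.2%). The loci with the exact element ranked highest and the repeat loci lowest. At element loci the median percentile was 96.9 in the HCT116 p53+/+ list and 98.5 in the HCT116 p53-/- list, and 59 loci (71.1%) were in the highest-scoring 10% of both lists. With 1 mismatch the percentiles were 85.6 and 98.0, with 50 such loci (46.7%). Repeat loci had percentiles of 28.8 and 68.1, with 2 such loci (5.56%). Loci with none of these sequences stood at 72.6 and 97.3, with 27 such loci (35.5%), above the repeat loci in both lists.

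The ranks of a locus in the lists went together. Spearman's rho between the percentiles of the highest peak in each list was 0.771 over the 302 loci, and 0.507 over the 40 loci with a T(C/G) run. Loci are not replicates, and both percentiles share the sequence and the mappability of the locus, so rho is given as a description. HCT116 p53+/+ had the higher raw score at 14 loci, but raw scores are not scaled for the depth of the libraries and the difference between lines cannot be read from them.

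**Figure D4:**
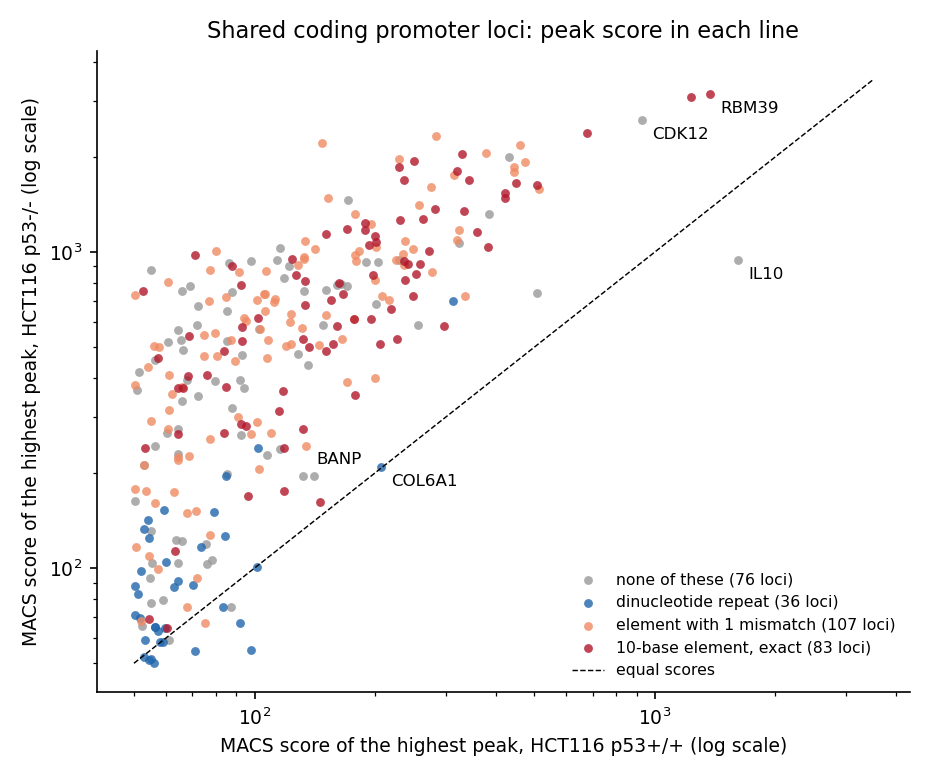
MACS score of the highest peak in HCT116 p53+/+ (x axis) and in HCT116 p53-/- (y axis), both on log scales, at the 302 shared coding promoter loci, coloured by the sequence their peaks hold. The dashed line marks equal scores. RBM39 lies at the upper right with the exact element, loci with a dinucleotide repeat gather at the lower left, and IL10 is far to the right of the others at its height, with 1616 against 944.10.

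The highest shared promoters belonged to genes of varied function. RBM39, a splicing factor, had the highest locus by the lower of its percentiles, with a score of 1368.67 (rank 3) in HCT116 p53+/+ and 3160.36 (rank 2) in HCT116 p53-/-. Its peaks, on chromosome 20 from 34329979 to 34330694 and from 34329893 to 34330678, covered both copies of the element printed above, 1 at the TSS and 1 upstream at -168.5 bp. CDK12, a kinase that acts on RNA polymerase II, had 929.19 (rank 6) and 2607.34 (rank 5), and its peaks held neither an element form nor a repeat. COX11, needed to assemble cytochrome c oxidase, had 677.03 (rank 8) and 2369.19 (rank 6), with its copy at -15.5 bp. These loci were thus in the first 8 peaks of both lists, and RBM39 and COX11 held the exact element.

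The next loci kept the same mix. TMEM18, which encodes a transmembrane protein, scored 475.00 (rank 15) in HCT116 p53+/+ and 1918.27 (rank 18) in HCT116 p53-/-. The promoter shared by FBXL5, an iron-sensing subunit of a ubiquitin ligase, and FAM200B scored 459.11 (rank 17) and 2176.12 (rank 11). A locus assigned to the coding gene record ENSG00000290315 and to QRICH1 scored 443.93 (rank 19) and 1859.33 (rank 20). All 3 held a form with 1 mismatch. MAPK14, a stress-activated protein kinase, scored 449.28 (rank 18) and 1650.27 (rank 27). RNF167, a ubiquitin ligase, scored 508.99 (rank 12) and 1627.29 (rank 28). The peaks of both these genes held 2 copies of the exact element. NCAPG, a condensin subunit, scored 443.89 (rank 20) and 1784.57 (rank 22), and LRSAM1, another ubiquitin ligase, 512.01 (rank 11) and 1586.67 (rank 31), both with a form at 1 mismatch. SEC22C, which acts in vesicle transport, scored 432.26 (rank 22) and 1994.37 (rank 15) with none of these sequences.

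Among the loci with the exact element, UBE2D3, CAND1 and RPS19 came after these. UBE2D3, a ubiquitin-conjugating enzyme, scored 421.74 in HCT116 p53+/+ and 1478.19 in HCT116 p53-/-, with copies at 96.5 and -11.5 bp. CAND1, which exchanges the substrate receptors of cullin ubiquitin ligases, scored 421.27 and 1539.57, with its copy at -205.5 bp. RPS19, of the small ribosomal subunit, scored 342.54 and 1688.70, with its copy at -44.5 bp. The element thus lay from -205.5 to 96.5 bp across the printed loci, in peaks of both lines at each of them. These positions are from 1 TSS per locus and change where the peaks of the lines have different nearest TSSs. From the TSS nearest the HCT116 p53+/+ peak, the UBE2D3 copies lay at 63.5 and -44.5 bp and the COX11 copy at -64.5 bp.

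The highest loci with a T(C/G) run scored lower, with 1 of them above the others. PPCDC, an enzyme of coenzyme A synthesis, scored 313.51 in HCT116 p53+/+ and 699.52 in HCT116 p53-/-. Its run of 14 bp was in the HCT116 p53-/- peak alone. COL6A1, which encodes a collagen VI chain, scored 206.73 and 208.53, nearly equal in the lists, and its run of 98 bp lay at -1066.5 bp. PAXBP1 scored 117.67 and 362.99 and held the exact element besides its run, as did SRSF10, a splicing regulator, which scored 102.13 and 617.65 with a run of 12 bp. ANAPC7, a subunit of the anaphase-promoting complex, scored 102.20 and 239.61 and held the longest of these runs, 120 bp at its TSS.

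BANP itself, which encodes the precipitated protein, was among the loci. Its promoter peak scored 134.47 in HCT116 p53+/+ (rank 284, 95 percentile) and 243.84 in HCT116 p53-/- (rank 366, 95.6 percentile). The centres were 25.5 and 23 bp downstream of the TSS, and the peak held a form of the element with 1 mismatch.

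IL10, the gene of an anti-inflammatory cytokine, stood apart and was singled out after its values were seen. Its peak was the highest of the shared promoters in HCT116 p53+/+ with 1616 (rank 2), and scored 944.10 (rank 77) in HCT116 p53-/-. It was 1193 bp long in HCT116 p53+/+ and 1194 bp long in HCT116 p53-/-, with ends at the same base and starts 1 bp apart, whereas starts differed by a median of 90 bp and ends by 78.0 bp over the 302 loci. Both edges agreed within 5 bp at 9 loci in all. The IL10 peak held neither an element form nor a repeat, and whether IgG gives it too was not tested.

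Gene families were unevenly represented, and the families were chosen with earlier results of these data known. The families were defined by gene symbol, so a gene of the same function with another symbol was not counted. Against 318 of all 20090 protein-coding genes (1.58%), 14 of 77 cytosolic ribosomal protein genes (18.2%, 11.2 to 28.2) had a shared coding promoter peak in either list, 6 of them at loci with the exact element. Their scores ranged widely, and RPS9 had 52.75 in HCT116 p53+/+ against 750.24 in HCT116 p53-/-. RPS19, RPS6, RPS28 and RPL10A stood at 342.54, 237.95, 236.04 and 226.23 in HCT116 p53+/+, and at 1688.70, 817.36, 910.58 and 941.52 in HCT116 p53-/-.

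Splicing and hnRNP proteins followed with 8 of 123 listed genes (6.5%, 3.33 to 12.3), of which 6 were at element loci. LSM14A was counted by its symbol, while PUF60 (122.46 and 601.62) and RNPC3 (132.11 and 531.05) had shared loci outside the list. After RBM39, LSM3, of the LSm ring that binds U6 RNA, scored 384.01 in HCT116 p53+/+ and 1034.66 in HCT116 p53-/-. HNRNPH3, an RNA-binding protein, scored 150.73 and 486.88, and SNRPG, a core protein of spliceosomal snRNPs, 72.13 and 350.93. Cell-cycle kinases, cyclins and CDC proteins had 4 of 62 genes (6.45%, 2.54 to 15.4). They were CDK12, CDC5L, a spliceosome component with 250.28 and 1937.26, CDC20, an activator of the anaphase-promoting complex with 135.83 and 438.86, and CDC26, a subunit of that complex with 50.95 and 364.89. The HCT116 p53+/+ peaks at CDC20 and CDC26 had their nearest TSS in CDC20-DT, a lncRNA gene, and in PRPF4, respectively. The cyclins CCNC (176.92 and 614.42) and CCNT1 (177.51 and 611.77) were outside this symbol list but had shared coding promoter peaks in both lines. Of the listed genes, CDK12 and CDC5L had a shared coding promoter peak in both lists (2 of 62, 3.23%, 0.889 to 11). That interval includes the 1.37% of all coding genes. The ribosomal and splicing families had 12 of 77 (15.6%, 9.15 to 25.3) and 6 of 123 (4.88%, 2.25 to 10.2) by that count, above that share.

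Several other families had intervals that included or came close to the share of all coding genes. These counts hold for the listed symbols only. LRSAM1 and SEC22C, named above, were in neither the ubiquitin nor the vesicle list. Mitochondrial ribosomal proteins had 3 of 78 genes (3.85%, 1.32 to 10.7), respiratory chain subunits 3 of 100 (3.0%, 1.03 to 8.45), vesicle traffic genes 3 of 148 (2.03%) and ubiquitin conjugation and removal 5 of 263 (1.90%). MRPS7, of the mitochondrial small subunit, scored 132.97 and 965.19, and NDUFA11, of respiratory complex I, scored 91.32 and 864.26. COPB2, a coatomer subunit, had 178.03 and 1320.75, SEC62, of the translocation channel, 131.55 and 574.01, and ARF3, a small GTPase, 92.36 and 786.40. Zinc-finger proteins had 6 of 601 genes (0.998%, 0.458 to 2.16). Matrix-attachment factors had 2 of 12 genes (16.7%, 4.70 to 44.8), MATR3 and BANP, the gene of the precipitated protein. That interval lay above the share of all coding genes, but the list is of few genes. Of the listed 86 histone genes, 45 DNA repair factors and 30 p53 target genes, 0 had such a peak. This allows shares of up to 3.49%, 6.67% and 10.0%, respectively. The lists are not complete for these functions. SHPRH (207.87 and 724.19) and SPRTN (50.33 and 731.76), outside the DNA repair list, had shared coding promoter loci.

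**Figure D5:**
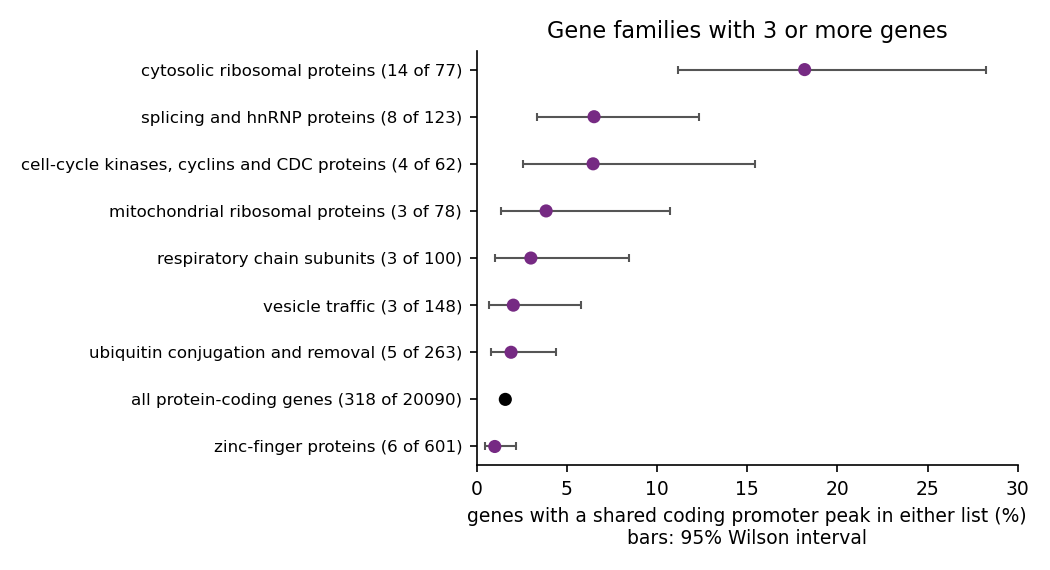
Share of genes (x axis, %) with a shared coding promoter peak in either list, for the families with 3 or more such genes (y axis), with 95% Wilson intervals. Families are defined by gene symbol. Cytosolic ribosomal proteins are at 18.2% and all protein-coding genes, the black point, at 1.58%.

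Other promoter motifs were searched as exact matches on both strands in the same windows, to see which the shared promoters held more or less often than promoters in general. The ETS motif CCGGAAG was in 21.4% of the windows in HCT116 p53+/+ and 20.6% in HCT116 p53-/-, against 12.1% of all coding promoters. The YY1 motif AAGATGGCG was in 5.95% and 5.07%, against 2.35%, and the ZNF143 motif ACTACAATT in 2.38% and 2.36%, against 0.353%. SP1 sites (GGGCGG) were in 52.1% and 52.4%, against 54.1%, and CCAAT boxes, bound by NFY, in 29.5% and 32.1%, against 33.7%. The motifs of NRF1 (GCGCATGCGC, 1.79% and 2.03%, against 1.42%), CRE (TGACGTCA, 2.98% and 3.04%, against 2.17%) and the E-box (CACGTG, 8.04% and 7.77%, against 7.81%) were closer to the share of all promoters. The AP1 motif TGANTCA was less frequent than in all promoters, in 3.27% and 3.72%, against 5.91%. For ETS, YY1 and ZNF143 the intervals did not overlap those of all coding promoters, and for the other motifs they did. A match is a description, not a site of binding.

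Promoters that face each other were also counted. A coding TSS of the opposite strand lay within 1 kb at 63 of the 302 loci (20.9%, 16.7 to 25.8), against 3226 of 20098 coding promoters (16.1%, 15.6 to 16.6). Among the loci with the exact element it was 16 of 83 (19.3%, 12.2 to 29.0), an interval that includes the share of all promoters.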

How the data were processed

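SMAR1 binding was measured by ChIP-seq with 1 anti-SMAR1 library for HCT116 p53+/+ and 1 for HCT116 p53-/-. According to the submitters' processing notes, the authors trimmed single-end reads with cutadapt 1.2.1, aligned them to hg19 with Bowtie2 2.2.1, used SAMtools 0.1.19 (the study's methods give another version) and called peaks for each library with MACS 1.4.2. The deposited peak lists give positions and a MACS score, which is the log10 of a peak's p-value times -10, with no counts, so the reads behind a single peak and its precision cannot be computed from them. The authors filtered on fold enrichment. The cut, and whether IgG served as control, are not given in the sources used here. Only peaks passing MACS were listed, with lowest scores of 50 and 50.03, so a region without a peak is not shown to be unbound.

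Positions were converted to 1-based coordinates and compared with GRCh37 (hg19) and GENCODE release 44 mapped to it. Overlap required 1 bp, and distances ran from the peak centre to the nearest TSS of any transcript. Motifs were searched on both strands in the peak or in 150 bp on either side of its centre, and for 20098 coding promoters around the TSS of the gene record. Shares carry 95% Wilson intervals. No test between lines was possible with 1 library each, and peaks are not replicates, so no p-value was computed. A share of 0 was given the limit that 3 counts allow. The functions were tested on simulated data. The alternatives were other rules for overlap, score, window, TSSs, chromosomes, repeated sequence, element and run. The peaks, families and sequences were chosen with earlier results of these data known.

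The loci named are the 12 highest by the lower of both within-list percentiles, the 8 highest with the exact element, the 5 highest with a T(C/G) run, up to 5 for each family with 3 or more genes, the 3 peaks on each side of the 1 kb limit, and BANP. From the families, part of these loci is described, and some items under this rule are not reported here. IL10, RPS9 and MATR3 were named after their values were seen. Sequences were read from the same genome. Genome sequence was read with pysam 0.24.0, figures were drawn with matplotlib 3.10.9, and the rest used scipy 1.17.1, pandas 2.3.3 and numpy 2.4.6 under Python 3.11.15.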

Additional observations from a re-analysis of the deposited data

How the results depend on the processing

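Of the values recomputed under an alternative, 52 stayed within the main value's interval, or for counts within 1.5-fold of it, and 37 did not. Values are for HCT116 p53+/+ and HCT116 p53-/-, respectively. An overlap of at least 50% of both peaks left 163 and 156 peaks, with the element in 28.8% in HCT116 p53+/+, T(C/G) runs in 19% and 21.2% and median percentiles of 95.3 and 97.9. Peaks at or above the median score held the element in 32.3% and 33.3% and runs in 4.87% and 6.10%, at percentiles of 94.9 and 98.4. Runs fell to 6.37% and 8.03% within 500 bp of the TSS, to 5.15% and 6.58% with gene-record TSSs, to 3.28% and 4.91% with unique central bases and to 7.44% and 8.45% at 20 bp or more. The element was in 52.1% and 62.2% with 1 mismatch, 33.3% and 39.2% by its inner 8 bases and 79.2% and 86.1% by its inner 4. By alternatives chosen after seeing the data, it was in 52.7% and 61.5% by the word TCGCGAGA and 56.8% and 66.9% by the inner 6 bases. Searched in the peak itself, ETS was at 15.2% and 25.7%, SP1 at 39.6% and 61.5%, and in HCT116 p53+/+ NFY was at 18.8% and the E-box at 5.06%, where peaks are shorter than the window. Each line has 1 library, so no difference between lines has a replicate check, and no paired analysis was possible because the groups hold 1 sample each. In the family of cell-cycle kinases, cyclins and CDC proteins, 4 of the listed genes had a shared coding promoter peak by either peak list and 2 by both. The lists do not give the reads behind a peak, which limits what a missing peak shows.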

Other observations

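The repeat-bearing loci formed a small set that differed from the other shared promoters in several measures at once. Peaks with a T(C/G) run and no element form had a median GC content of 51.5% in HCT116 p53+/+ and 51.2% in HCT116 p53-/-, against 63.5% and 62.1% in peaks with the exact element. Their median lengths were 93.0 and 96.0 bp, against 255 and 487 bp. These values are a description, since length and score come from the same call, and how far repeated sequence sets them was not tested.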
